A study of Mus musculus with 6 samples.

Results

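The genes described here are 10 genes of antigen presentation: the class I heavy chains H2-K1 and H2-D1, the class I light chain B2m, the peptide transporter subunit Tap1, the class II chains H2-Aa, H2-Ab1, H2-Eb1 and H2-Ea, the peptide exchange subunit H2-DMa and the invariant chain Cd74. Every probe set that the platform annotation ties to 1 of these genes was taken, whatever its level, which gave 36 of the 45037 probe sets tested, and the 10 genes are among 18193 with a probe set of their own. Of the 36, 33 carried 1 gene and 3 carried several. The genes were picked from earlier results on these same arrays, with their transgenic minus wild-type differences known, so those differences are described below and are not used as a test. RNA came from freshly dissected adult testis of C57BL/6 x CBA hybrid mice, on 3 arrays from wild-type mice and 3 arrays from mice carrying a constitutively active mutant of DREAM, a calcium-binding transcriptional repressor. The submitters describe the 3 arrays of each genotype as independent biological replicates. The sources used here do not give the promoter that drives the transgene, the number of transgenic lines or an age beyond adult.

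MHC class I molecules pair a polymorphic heavy chain with beta-2-microglobulin and show peptides from inside the cell, which the TAP transporter carries into the endoplasmic reticulum, on nearly every nucleated cell. Class II molecules are alpha-beta dimers that macrophages, dendritic cells and B cells use to show peptides taken up from outside. The invariant chain (Cd74) guides them through the endosomes, where H2-DM exchanges its remnant for peptide. In testis, class I and class II molecules are found mainly on interstitial and other somatic cells, and germ cells carry little. The mouse complex is among the most polymorphic regions of the genome: C57BL/6 carries the haplotype called b and CBA the haplotype called k, and b animals make no E alpha chain because their H2-Ea gene has lost its promoter. The labels do not give the haplotype of any animal, so haplotype was not tested, nor was it tested whether a probe set reads all alleles alike.

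Promoter windows of 4 genes are printed to show how alike the class I pair is, where differences by probe set went both ways, beside a class II pair. RefSeq promoter windows, 250 bases before to 50 after the annotated start, were found for 7 of the 10 genes in assembly GRCm38.p6, the genome of C57BL/6J. H2-Ab1, H2-Ea and Cd74 had none in the table used. The windows are H2-K1 (chr17:34000298-34000597, minus strand), H2-D1 (chr17:35262844-35263143, plus strand), H2-Aa (chr17:34287774-34288073, minus strand) and H2-Eb1 (chr17:34305617-34305916, plus strand). The table lists 2 windows for H2-K1, and the one given first is shown. Capitals mark the Y box (ATTGG, which reads as the CCAAT box on the other strand). They also mark the core of the X2 or site alpha element, which is TGACG. The TATA box was searched as TATAAA, and all 3 motifs on both strands.
H2-K1: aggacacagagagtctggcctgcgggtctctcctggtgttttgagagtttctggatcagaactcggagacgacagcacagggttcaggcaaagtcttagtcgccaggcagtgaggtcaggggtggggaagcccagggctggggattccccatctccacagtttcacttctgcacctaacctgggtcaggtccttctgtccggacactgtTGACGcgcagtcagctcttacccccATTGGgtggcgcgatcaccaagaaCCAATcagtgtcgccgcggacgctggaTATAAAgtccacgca
H2-D1: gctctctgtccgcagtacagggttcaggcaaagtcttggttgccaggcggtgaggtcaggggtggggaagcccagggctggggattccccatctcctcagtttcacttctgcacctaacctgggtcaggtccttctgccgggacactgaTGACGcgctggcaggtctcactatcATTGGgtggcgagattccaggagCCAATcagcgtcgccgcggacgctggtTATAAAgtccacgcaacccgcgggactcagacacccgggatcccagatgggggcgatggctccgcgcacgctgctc
H2-Aa: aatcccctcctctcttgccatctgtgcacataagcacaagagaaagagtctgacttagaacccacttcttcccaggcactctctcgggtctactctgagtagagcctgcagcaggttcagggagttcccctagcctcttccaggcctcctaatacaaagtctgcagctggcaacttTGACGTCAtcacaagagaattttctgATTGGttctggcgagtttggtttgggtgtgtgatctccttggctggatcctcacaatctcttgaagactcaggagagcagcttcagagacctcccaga
H2-Eb1: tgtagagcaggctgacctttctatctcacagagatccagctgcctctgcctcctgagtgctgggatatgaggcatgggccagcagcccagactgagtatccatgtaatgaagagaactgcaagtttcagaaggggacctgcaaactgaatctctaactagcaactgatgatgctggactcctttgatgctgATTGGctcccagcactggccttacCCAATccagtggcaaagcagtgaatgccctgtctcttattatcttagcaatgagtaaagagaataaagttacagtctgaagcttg

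The H2-K1 and H2-D1 windows are identical at 89.5% of the 239 positions that align without a gap. They share 5 exact runs of at least 15 bases, the longest of which is 47 bases and holds the kappa B-like palindrome of the class I enhancer.
Shared by H2-K1 and H2-D1: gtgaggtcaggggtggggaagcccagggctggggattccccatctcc
It was found in 3 of 32851 promoter windows of that table, all of them windows of H2-K1 or H2-D1. The H2-Aa and H2-Eb1 windows are identical at 50.4% of 282 positions, no more than H2-K1 and H2-Aa of different classes (53.4% of 277). ATTGG was in 6 of the 7 windows of the described genes and in 37.4% of all windows of the same length. TGACG was in 5 of the 7 and in 20.8% of all, and TATAAA in 3 of the 7 and in 13.6% of all. In H2-Aa, TGACG lies on both strands in overlapping copies. In H2-K1 TATAAA begins 36 bases after the annotated start, and in H2-D1 it begins 26 bases before it. A match describes these letters and is not a bound site.

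Across the 36 probe sets, 27 read higher and 8 lower on average in transgenic testis, against 25430 higher and 19123 lower of all 45037. The median difference was 0.12 on the log2 scale against 0.02 over all 45037 probe sets. In 11 of the 36 all 3 transgenic arrays lay above all 3 wild-type arrays, an ordering found in 6.35% of all probe sets. In 1 of the 36 all 3 lay below, as in 4.95% of all probe sets. At an adjusted p under 0.05 in the fit over all probe sets (limma, Benjamini-Hochberg), 2 of the 36 passed as higher, against 0.171% of all probe sets, and 0 as lower, against 0.273%. At an unadjusted limma p under 0.05 the counts were 9 higher (3.75% of all probe sets) and 1 lower (2.94%), or 6.69% of all probe sets in either direction. Both that passed are probe sets of H2-K1. Since the genes were chosen with these differences known, nothing is read from the counts. The number that passed was 1 without wild type replicate 1, 3 without wild type replicate 2 (1 of H2-Aa was the addition) and 0 without wild type replicate 3 or any 1 of the 3 transgenic arrays. The number that passed over all probe sets changed between these fits too, and its range is given in the last section. The differences of those H2-K1 probe sets stayed between 0.63 and 0.78 and between 0.54 and 0.60 with each array left out in turn.

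**Figure D1:**
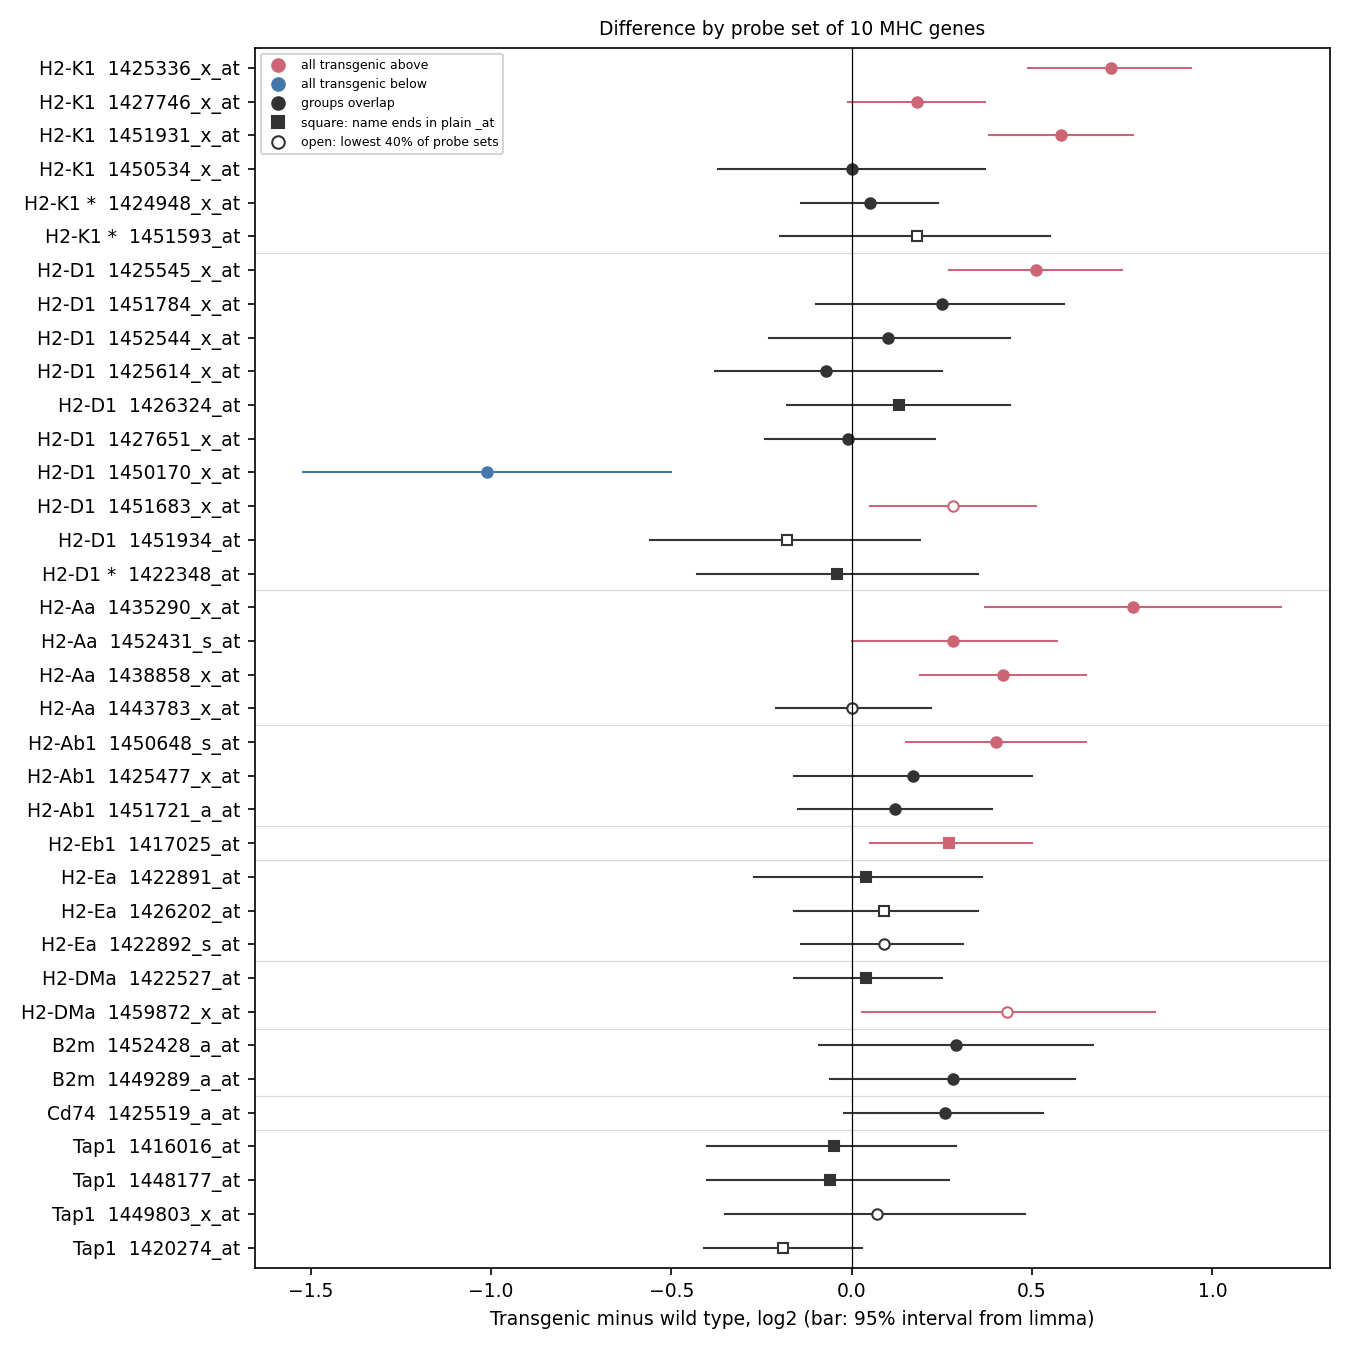
Difference between transgenic and wild-type means (log2, horizontal axis) for each of the 36 probe sets, with 95% intervals from limma; an asterisk marks annotation to several genes. Probe sets of 1 gene spread widely, most of all those of H2-D1, from -1.01 to 0.51.

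Array values of the whole series bear on these numbers in 2 ways. Wild type replicate 2 had the lowest of the 6 values in 18 of the 36 probe sets (50%), against 27.4% of all probe sets. Among the lists described below, this share ran from 7.69% (germ cell) to 76.9% (all leukocytes), and was 58.8% for other class I genes. That array also had the lowest median of the 6, 5.99. The level of the 3′ Gapdh control probe set less that of the 5′ one, which grows as RNA is shortened from its 5′ end, was 0.06 to 0.16 in wild type and 0.21 to 0.33 in transgenic testis, so the groups did not overlap. With it as a covariate 0 of the 36 passed, and 23 of the 36 differences moved by more than the replicate SD. Since the Gapdh difference itself separates the groups, its part and that of genotype cannot be told apart on 6 arrays. The errors also widen in that fit. For 1425336_x_at of H2-K1 the difference went from 0.72 to 0.92 and its SE from 0.10 to 0.18. The part of the Gapdh difference was not tested otherwise. RMA gives no detection call, and 9 of the 36 probe sets lay in the lowest 40% of all probe sets by mean level. In whole testis, fewer cells of a type and less RNA per cell cannot be told apart.

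H2-K1, one of the classical class I heavy chains, had 4 probe sets that carry it alone, all of the _x_at class, in which some probes of the set also match other transcripts. Probe set 1425336_x_at read 8.77, 9.06 and 8.98 in wild type and 9.68, 9.63 and 9.65 in transgenic testis (log2). All 3 transgenic arrays were above the highest wild-type array, and the means of 8.94 ± 0.15 and 9.65 ± 0.03 (SD, n = 3) differ by 0.72 (SE 0.10), a 1.64-fold ratio of intensities.

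Probe set 1451931_x_at of H2-K1 read 7.48, 7.40 and 7.48 in wild type and 8.0, 7.99 and 8.11 in transgenic testis. The groups were again apart, with a difference of 0.58 (SE 0.09), or 1.49-fold. Probe set 1427746_x_at read 8.10, 8.02 and 8.05 against 8.26, 8.27 and 8.19, apart as well but by 0.18 (SE 0.08). The remaining one, 1450534_x_at, read 7.76, 7.08 and 7.33 against 7.25, 7.38 and 7.54. Its groups overlapped fully and its means were equal at 7.39, with an interval for the difference of -0.37 to 0.37. H2-K1 therefore had probe sets that differed from 0.00 to 0.72 on the same arrays. The average over the 4 went from 7.96 in wild type to 8.33, a difference of 0.37 that did not pass in a fit of gene averages (limma adjusted p = 0.0651). With the Gapdh difference as a covariate, 1425336_x_at read 0.92, 1451931_x_at 0.44 and 1427746_x_at 0.19, while 1450534_x_at read -0.66 (SE 0.21).

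Of the 3 probe sets annotated to several genes, 1424948_x_at is tied to both heavy chains of the group and 1451593_at to H2-K1 with another class I gene. The third, 1422348_at, is tied to H2-D1 with 2 other genes. Their differences ran from -0.04 to 0.18, their groups overlapped in all 3, and wild type replicate 2 was the lowest array in each. With the Gapdh covariate, 1451593_at went from 0.18 to -0.55 (SE 0.18) and 1422348_at from -0.04 to -0.35, and 1424948_x_at read 0.02.

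H2-D1, the other classical heavy chain here, had 9 probe sets that carry it alone, with differences in both directions. Probe set 1450170_x_at read 6.41, 6.41 and 6.82 in wild type and 5.77, 5.88 and 4.96 in transgenic testis. Every transgenic array was below every wild-type array, and transgenic replicate 3 lay lowest. The means of 6.55 ± 0.24 and 5.54 ± 0.50 (SD, n = 3) differ by -1.01 (SE 0.23, limma adjusted p = 0.154), a 2.01-fold ratio. With 1 array left out this difference ran from -1.18 (without transgenic replicate 2) to -0.72 (without transgenic replicate 3). It was -0.35 (SE 0.39) with the Gapdh difference as a covariate. Among the 9 probe sets that carry H2-D1 alone, 1450170_x_at is the 1 whose annotated sequence is a RefSeq transcript of the gene. Probe set 1422348_at, tied to several genes, is annotated to a RefSeq transcript as well.

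Probe set 1425545_x_at of H2-D1 went the other way. It read 7.76, 7.93 and 7.94 in wild type and 8.56, 8.27 and 8.33 in transgenic testis, with the groups apart. The difference was 0.51 (SE 0.11, limma adjusted p = 0.119), or 1.42-fold, and 0.78 (SE 0.19) with the Gapdh covariate. The dim 1451683_x_at, in the lowest 40% of probe sets, read 4.95, 4.92 and 5.17 against 5.35, 5.31 and 5.22, also apart, by 0.28 (SE 0.10).

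The other 6 H2-D1 probe sets overlapped between the groups. Probe set 1451784_x_at read 7.73, 7.51 and 7.92 against 8.14, 7.66 and 8.10, a difference of 0.25, and 1426324_at, of the plain class, read 6.70, 6.17 and 6.63 against 6.61, 6.68 and 6.59, a difference of 0.13. Without wild type replicate 2 these became 0.14 and -0.04. The means of 1452544_x_at, 1425614_x_at and 1427651_x_at differ by 0.10, -0.07 and -0.01, and those of 1451934_at by -0.18. The 9 differences of this gene span 1.52 on the log2 scale. Their plain average was 6.47 in both genotypes. In 3 of the 9 the groups did not overlap, 2 above and 1 below, against 11.3% of all probe sets in either direction.

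**Figure D2:**
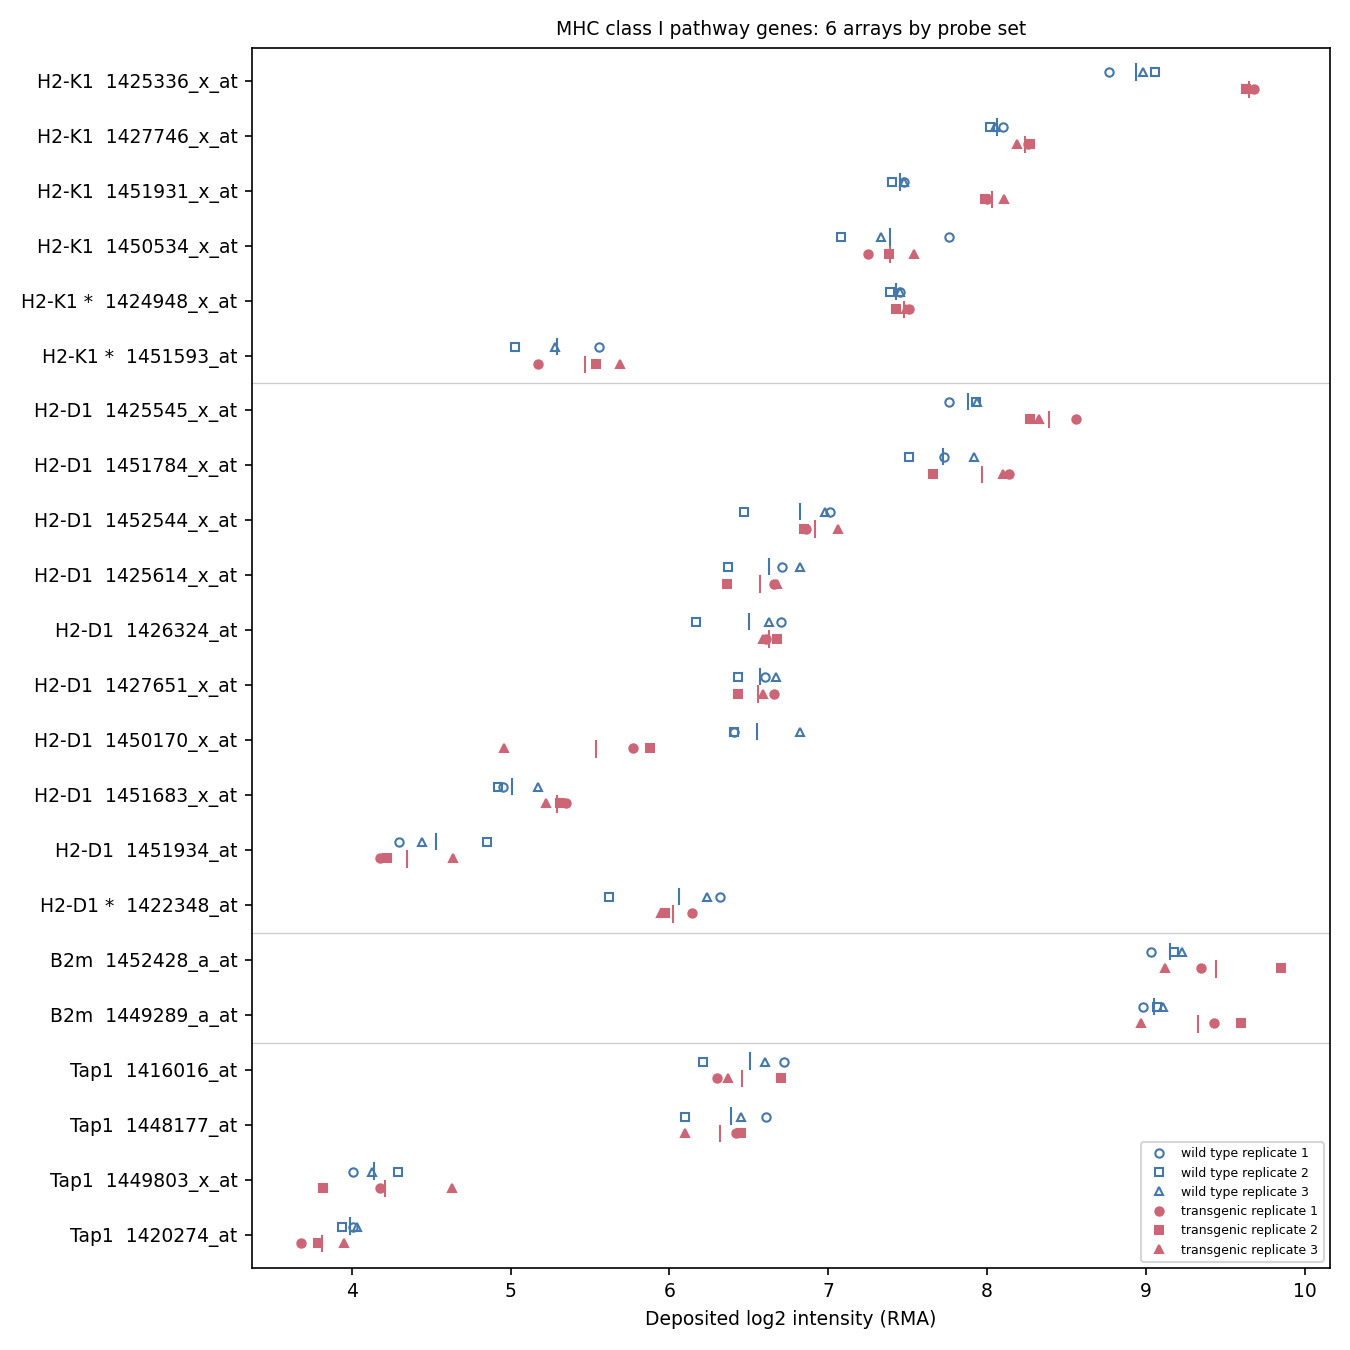
Deposited log2 intensity (horizontal axis) of each class I pathway probe set on the 6 arrays, with wild type open and transgenic filled, shapes for replicates and short bars for group means; an asterisk marks annotation to several genes, and 1424948_x_at is also tied to H2-D1. For H2-D1, 1450170_x_at has its transgenic arrays at 4.96 to 5.88, below wild type, and 1425545_x_at has them at 8.27 to 8.56, above wild type.

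B2m encodes beta-2-microglobulin, the light chain shared by the class I molecules, and lies outside the complex on chromosome 2. Probe set 1452428_a_at read 9.03, 9.18 and 9.23 in wild type and 9.35, 9.85 and 9.12 in transgenic testis. Probe set 1449289_a_at read 8.98, 9.07 and 9.11 against 9.43, 9.60 and 8.97. On both, transgenic replicates 1 and 2 were above all wild-type arrays and transgenic replicate 3 was not. The differences of 0.29 (SE 0.17) and 0.28 (SE 0.15) are nearly the same, so the 2 probe sets of this gene ran together where those of the heavy chains did not. Without transgenic replicate 3 they read 0.45 and 0.46, and without transgenic replicate 2 they read 0.09 and 0.15. With the Gapdh difference as a covariate they read 0.62 and 0.72.

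Tap1 encodes a subunit of the transporter that loads class I molecules with peptide. Its 4 probe sets overlapped between the groups, with differences of -0.05, -0.06, 0.07 and -0.19. The brighter 1416016_at read 6.72, 6.21 and 6.60 in wild type and 6.30, 6.70 and 6.37 in transgenic testis, the lowest array being wild type replicate 2. Its interval, -0.40 to 0.29, holds differences in either direction. Probe sets 1449803_x_at and 1420274_at lay in the lowest 40% of probe sets.

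Among the class II genes, H2-Aa, the alpha chain of the A molecule, had the largest differences. Probe set 1435290_x_at read 6.22, 7.0 and 6.48 in wild type and 7.37, 7.50 and 7.17 in transgenic testis. Its groups were apart although wild type replicate 2 came close to the lowest transgenic array. The means differ by 0.78 (SE 0.18, limma adjusted p = 0.186), or 1.72-fold. With 1 array left out the difference ran from 0.61 (without wild type replicate 1) to 1.00 (without wild type replicate 2). It was 1.45 (SE 0.27) with the Gapdh covariate.

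Probe set 1438858_x_at of H2-Aa read 5.66, 5.74 and 5.54 against 6.10, 6.18 and 5.93, apart by 0.42 (SE 0.10). Probe set 1452431_s_at, of the class whose probes match several related transcripts, read 6.34, 5.95 and 6.40 against 6.54, 6.56 and 6.44, apart by 0.28 (SE 0.13), or by 0.14 without wild type replicate 2. Wild type replicate 2 was the highest wild-type array on the former and the lowest on the latter. The fourth, 1443783_x_at, lay between 3.10 and 3.33 on all arrays, near the bottom of the table, and read 0.00.

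H2-Ab1 encodes the beta chain that pairs with the H2-Aa product. Probe set 1450648_s_at, annotated to the RefSeq transcript, read 7.49, 7.35 and 7.74 in wild type and 7.92, 7.89 and 7.97 in transgenic testis, with the groups apart and a difference of 0.40 (SE 0.11). Probe sets 1425477_x_at and 1451721_a_at overlapped between the groups and read 0.17 and 0.12. The former read 0.00 without wild type replicate 2 and 0.30 without wild type replicate 3, and the latter 0.01 without transgenic replicate 2 and 0.19 without wild type replicate 3. The interval of the former, -0.16 to 0.50, includes the 0.40 of 1450648_s_at.

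H2-Eb1, the beta chain of the E molecule, had 1 probe set, and it is of the plain class. Probe set 1417025_at read 7.10, 6.93 and 7.16 in wild type and 7.33, 7.24 and 7.44 in transgenic testis. The groups were apart by a small margin and the means differ by 0.27 (SE 0.10), or by 0.07 (SE 0.18) with the Gapdh covariate. It was the 1 plain probe set of 11 in which the groups were apart. Of the 25 probe sets of the classes _x_at, _s_at and _a_at, 10 had all transgenic arrays above and 1 had all below, against 6.35% and 4.95% of all probe sets of any class.

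H2-Ea encodes the alpha chain of the E molecule, the one missing from animals of haplotype b. Its brightest probe set, 1422891_at, read 8.62, 8.07 and 8.49 in wild type and 8.34, 8.46 and 8.51 in transgenic testis. The groups overlapped, wild type replicate 2 was the lowest array, and the difference was 0.04 (SE 0.14), with an interval of -0.27 to 0.36. Probe sets 1426202_at and 1422892_s_at lay between 3.67 and 4.07 on all arrays and each read 0.09 with overlapping groups. The 3 differences of H2-Ea span 0.05, but the 2 dim probe sets lay near the bottom of the table, so the likeness tells little. Without wild type replicate 2, 1422891_at read -0.12, 1426202_at 0.08 and 1422892_s_at 0.06. Among 34807 probe sets of 1 other gene, the 4 genes nearest to 1422891_at in pattern were Hpgds, Gm6936, Mboat1 and Tra2a. Their Pearson r over the 6 arrays was 0.996 to 0.997 and their Spearman rho 0.943 to 1. All share the same 6 arrays, and 350 probe sets reached an r of 0.95, so the likeness is a description. Without the 2 arrays farthest from the median, wild type replicates 1 and 2, r was 0.967 to 0.993.

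Cd74 encodes the invariant chain, which fills the groove of new class II molecules. Its 1 probe set, 1425519_a_at, read 7.87, 7.57 and 7.96 in wild type and 8.14, 8.12 and 7.91 in transgenic testis. Transgenic replicate 3 lay within the wild-type range, so the groups overlapped, and the difference was 0.26 (SE 0.12). It was 0.14 without wild type replicate 2.

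H2-DMa encodes the alpha chain of the peptide exchange factor. Probe set 1422527_at, the plain one annotated to the RefSeq transcript, read 6.66, 6.68 and 6.68 against 6.60, 6.77 and 6.78, a difference of 0.04 within an interval of -0.16 to 0.25. The dim 1459872_x_at read 4.95, 4.23 and 4.89 against 5.01, 5.10 and 5.26, apart by 0.43 (SE 0.18). Here wild type replicate 2 was far below the rest, and without it the difference was 0.20. With the Gapdh covariate it was -0.22.

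**Figure D3:**
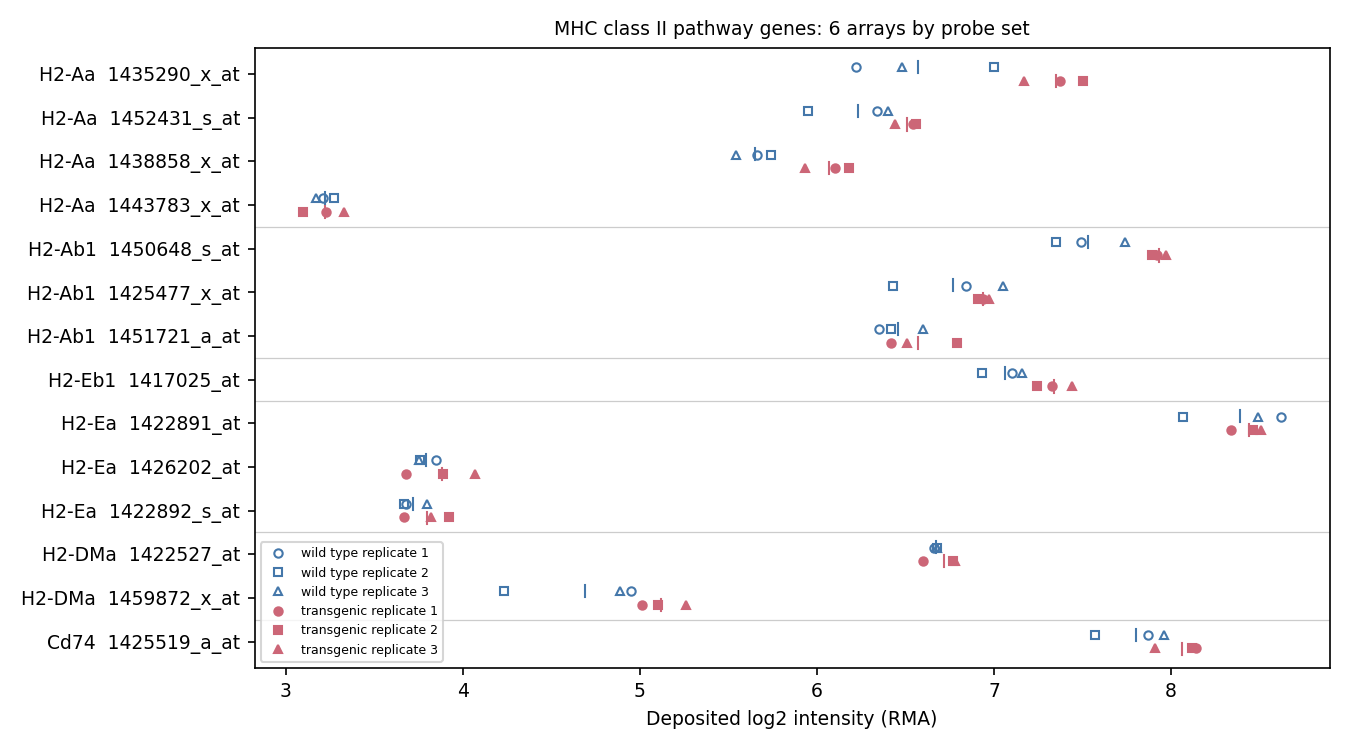
Deposited log2 intensity (horizontal axis) of each class II pathway probe set on the 6 arrays, with wild type open and transgenic filled, shapes for replicates and short bars for group means. The H2-Aa probe set 1435290_x_at shows wild type at 6.22 to 7.0 and transgenic at 7.17 to 7.50, while the brightest H2-Ea probe set covers 8.07 to 8.62 with the groups mixed.

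The other genes of antigen presentation were listed by their known roles, though with earlier results of these data known, and read from the same fit. Of 105 probe sets for 63 genes, 0 passed at an adjusted p under 0.05 (limma, against 0.444% of all probe sets), and 5 higher and 5 lower had an unadjusted p under 0.05, against 3.75% and 2.94% of all probe sets. Their median difference was 0.03. In 10 the transgenic arrays all lay above and in 6 all below, against 6.35% and 4.95% of all probe sets. Where a gene is named below, its other probe sets are given too.

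Among 6 probe sets for 4 other class II chains, the DM beta chain H2-DMb2 had the smallest p. Its probe set 1443686_at read 5.86, 5.84 and 5.93 in wild type and 5.28, 5.14 and 5.56 in transgenic testis, lower on all 3 transgenic arrays by 0.55 (difference -0.55, SE 0.12, limma adjusted p = 0.122). Its 2 other probe sets read -0.26 and -0.03 (adjusted p = 0.799 and 0.993). H2-Eb2, a second E beta gene, read 0.14 (adjusted p = 0.946).

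Among 17 probe sets for 13 other class I genes, the nonclassical H2-T3 read 0.30 on 1452548_x_at (adjusted p = 0.456) and 0.11 on its other probe set, and H2-M3, which presents formylated peptides, 0.24 (adjusted p = 0.842). The supply and loading of class I peptides had 20 probe sets for 11 genes. Pdia3, a chaperone of the loading complex, read 0.34 on the dim 1445330_at (adjusted p = 0.655) and 0.03 on its other probe set. Canx, another chaperone, read 0.22 on the dim 1428935_at (adjusted p = 0.761) and 0.07 and 0.17 on 2 brighter ones. Of the 10 probe sets for class II peptide supply, the protease gene Ctsb read -0.30 on 1417492_at (adjusted p = 0.388), while its 4 other probe sets overlapped between the groups and read 0.03, 0.10, 0.15 and -0.07. Ctss, the protease that trims the invariant chain, had 1 probe set, which read 0.27 (adjusted p = 0.759).

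Regulators of MHC transcription had 26 probe sets for 12 genes. Irf8, an interferon regulatory factor of myeloid cells, read 5.97, 6.25 and 6.10 in wild type and 6.53, 6.45 and 6.51 in transgenic testis. The groups were apart by 0.39 (SE 0.10, adjusted p = 0.237), and its other probe set read 0.10 (adjusted p = 0.967). Rfxank, a subunit of the factor that binds the X box, read -0.27 on 1419310_s_at (adjusted p = 0.508), -0.01 on 1425670_at and 0.14 on 1455371_at with all transgenic arrays above (adjusted p = 0.867). In the interferon response list of 26 probe sets for 18 genes, Stat2, a signal carrier of type I interferon, read -0.33 and -0.34 on its 2 probe sets (adjusted p = 0.531 and 0.562), with all transgenic arrays below on both. Iigp1, an interferon-induced GTPase, read 0.31 on one probe set and -0.19 on the other (adjusted p = 0.609 and 0.822), both in the lowest 40%.

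All of the genes but B2m and Cd74 lie on chromosome 17, from H2-K1 at one end to H2-D1 at the other. The RefSeq gene table of GRCm38.p6 places 120 genes between those ends, of which 72 had a probe set of their own. Leaving out the 10 genes and the other antigen presentation genes, 59 genes with 87 probe sets remained. Of the 87, 64 read higher and 23 lower, against 25430 and 19123 of all 45037 probe sets. The median of the 87 was 0.05, and 0 of them passed at an adjusted p under 0.05 (limma, against 0.444% of all probe sets). At an unadjusted limma p under 0.05 there were 8 higher and 3 lower of the 87, against 3.75% and 2.94% of all. In 11 of them all transgenic arrays lay above, against 6.35% of all probe sets, and in 3 all lay below, against 4.95%.

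The smallest p in that stretch belonged to Cyp21a1, the steroid 21-hydroxylase. It read 6.35, 5.87 and 6.59 in wild type and 7.06, 7.30 and 6.96 in transgenic testis, apart by 0.84 (SE 0.17, adjusted p = 0.117), and its other probe set was apart by 0.39 (SE 0.12, adjusted p = 0.446). Without wild type replicate 2 the difference of 0.84 became 0.64 and passed (adjusted p = 0.0491). Abhd16a, a lipase gene, read 9.10, 9.35 and 9.26 against 9.69, 9.64 and 9.65, apart by 0.42 (SE 0.10, adjusted p = 0.154), while its other probe set overlapped and read 0.06 (adjusted p = 0.968).

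**Figure D4:**
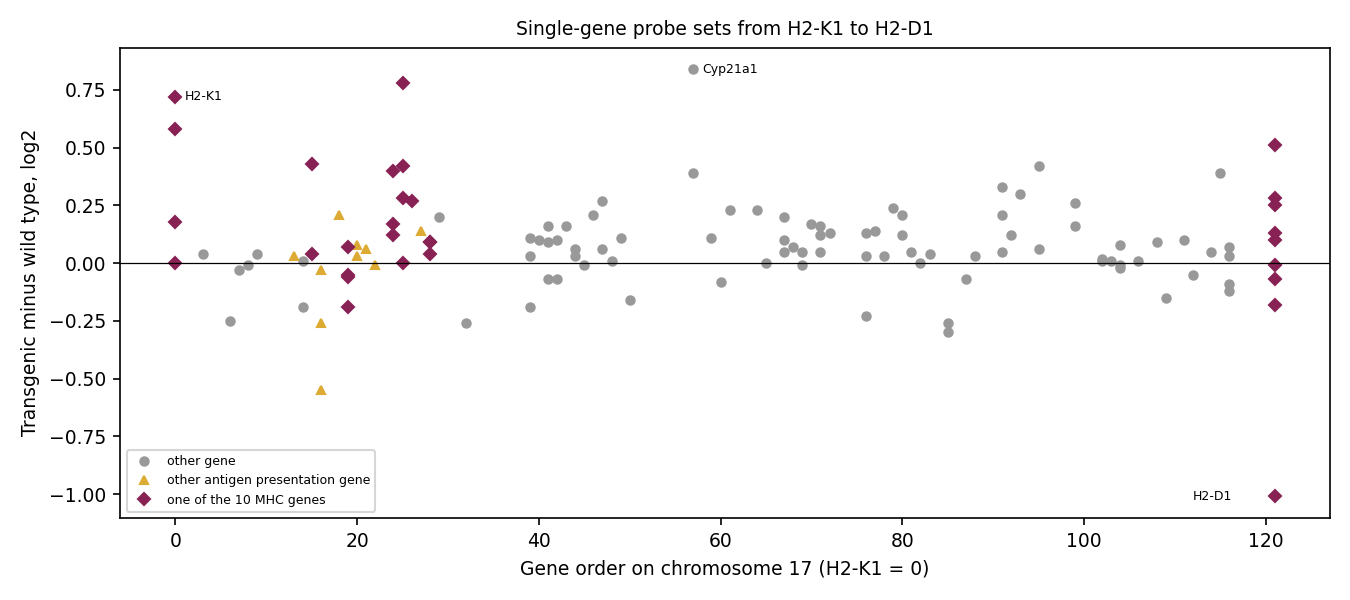
Difference between transgenic and wild-type means (log2, vertical axis) of each single-gene probe set from H2-K1 to H2-D1, in gene order on chromosome 17 (horizontal axis, a rank and not a distance). The probe sets of the 10 genes without B2m and Cd74, which lie on other chromosomes, run from -1.01 to 0.78. Those of other antigen presentation genes reach -0.55 (H2-DMb2), and those of the remaining genes run from -0.30 to 0.84.

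Marker lists give the cells that could carry these molecules. Macrophage genes read 6.45 to 6.57 in wild type and 6.64 to 6.71 in transgenic testis as the mean log2 level of 14 genes, 1 brightest probe set each, so the groups did not overlap. The summed intensity was 1570 to 1722 against 1830 to 1925. Of the 14 genes 12 read higher, where 25430 of all 45037 probe sets did. Of their 20 probe sets 0 passed (limma, against 0.444% of all probe sets). At an unadjusted limma p under 0.05 there were 4 higher and 0 lower of the 20, against 3.75% and 2.94% of all. Lyz2, the lysozyme of myeloid cells, read 0.36 (adjusted p = 0.331) and C1qc, a complement subunit of macrophages, 0.29 (adjusted p = 0.659). Endothelial genes read 5.46 to 5.59 and 5.64 to 5.71 over 8 genes, likewise apart, with a summed intensity of 427 to 466 against 452 to 473, where they overlap. Of the 8, 7 read higher, Tek by 0.47 (adjusted p = 0.237) and Emcn by 0.24 (adjusted p = 0.685). The part of these lists in the MHC differences was not tested.

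Dendritic cell genes (7 of 8 measured, 4 higher) read 5.82 to 5.94 in wild type and 5.86 to 6.02 in transgenic testis, with summed intensities of 501 to 519 and 484 to 540. B cell genes (5 of 6, 4 higher) read 5.49 to 5.81 and 5.74 to 5.80, with 257 to 327 and 310 to 333. Leukocyte genes (5 of 5, 4 higher) read 5.72 to 6.14 and 5.91 to 6.07, with 315 to 449 and 352 to 390. All of these overlapped. Zbtb46 read 0.25 on the probe set of lowest p (adjusted p = 0.759) and 0.16, 0.01 and 0.07 on the others, and Xcr1 read 0.17 (adjusted p = 0.946). Pax5 read 0.24 (adjusted p = 0.677) and 0.11, and Cd79b 0.13 (adjusted p = 0.968). Laptm5 read 0.18 (adjusted p = 0.857) and 0.05, -0.06, 0.03 and 0.02, and Coro1a 0.17 (adjusted p = 0.893), 0.12 and 0.05.

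T and NK cell genes (8 of 9, 4 higher) read 6.09 to 6.34 and 6.06 to 6.21, with summed intensities of 698 to 850 and 650 to 696, the latter not overlapping. The sum includes Cd3d, the large fall of which is given next, while the median difference of the 8 genes was 0.01. Of their 13 probe sets 1 passed, as lower, against 0.273% of all probe sets: Cd3d, a chain of the T cell receptor complex, fell from 8.08, 7.81 and 7.82 to 6.74, 6.94 and 6.92 (difference -1.04, SE 0.11, limma adjusted p = 0.00414). Its partner genes Cd3e and Cd3g read 0.18 and -0.22 (adjusted p = 0.836 and 0.814). RMA lists no gene at 0, and the lowest value of any marker gene in these lists was 3.96.

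**Figure D5:**
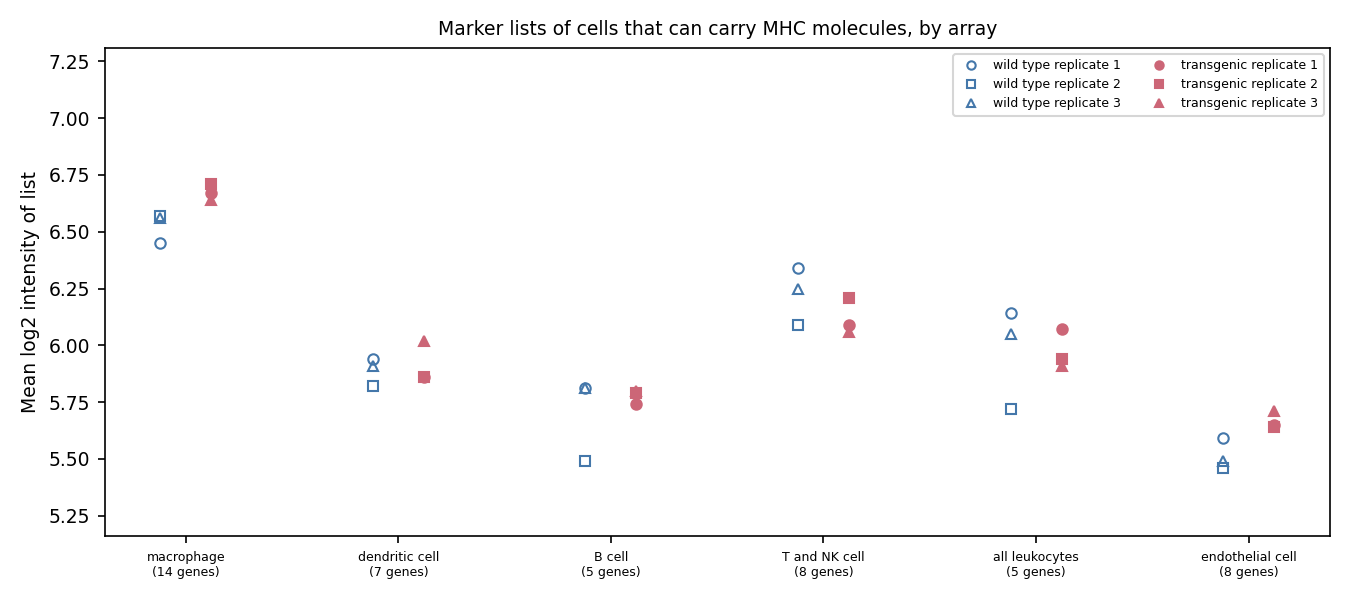
Mean log2 intensity (vertical axis) of 6 marker lists on each array, with wild type open and transgenic filled and shapes for replicates. The macrophage list lies at 6.45 to 6.57 in wild type and at 6.64 to 6.71 in transgenic testis, and the B cell list has wild type replicate 2 lowest at 5.49.

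The tissue label was checked against its own markers. Germ cell genes read 12.79 to 12.86 in wild type and 12.75 to 12.84 in transgenic testis over 8 genes, with Sycp3 at -0.12 (adjusted p = 0.953), Tnp1 at -0.10 and -0.02 (adjusted p = 0.95 and 0.993) and summed intensities of 82319 to 84986 and 81293 to 85401. Sertoli genes read 7.31 to 7.51 and 7.25 to 7.48 over 6 genes, with Fshr at 0.20 and Rhox5 at -0.17 (adjusted p = 0.78 and 0.857). Leydig genes read 9.52 to 9.75 and 9.88 to 10.04 over 4 of 6 genes, with a median difference of 0.02. Of their 8 probe sets 1 passed, as higher, against 0.171% of all probe sets. It was that of Hsd3b1, which rose by 1.48 (limma adjusted p = 0.00109) and so lifts the mean of the list. Cyp17a1 read 0.03, and Cyp11a1 read -0.08, -0.06 and 0.11 on its probe sets.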

How the data were processed

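The authors deposited 1 log2 intensity for every probe set on each of 6 Affymetrix Mouse Genome arrays, and the submitters' processing notes name RMA and the affy package with no version. RMA brings arrays to a near-common distribution (array medians 5.99 to 6.08), so a shift of all transcripts cannot be seen. Of 45101 probe sets, 64 controls were left out and 45037 tested with no filter. Genes come from the platform annotation, matched to RefSeq by gene ID (34945 probe sets with 1 gene, 932 with several, 9160 with none). That annotation can be out of date. Transgenic minus wild type was fitted with limma 3.58.1 in R 4.3.3 (two-sided, Benjamini-Hochberg over 45037, threshold 0.05), after a check on simulated data. Errors are SDs or limma SEs, and 3 arrays a group limit the precision. Intervals are 95% intervals.

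The 10 genes and all lists were chosen with earlier results of these data known. All probe sets of the 10 genes were described. In each other list, up to 4 probe sets that passed were named, and where none passed, the 2 genes with the lowest p, each first by its probe set of lowest p, and the 4 genes nearest to H2-Ea in pattern. Further probe sets of named genes were named after their values were seen. Alternatives were a filter on the lowest 40% of probe sets, other normalizations, eBayes with trend, array weights, a replicate block, the Gapdh covariate, leaving out each array, a threshold of 0.1, leaving out probe set classes and averaging. Promoter sequences were aligned with Biopython 1.88.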

Additional observations from a re-analysis of the deposited data

How the results depend on the processing

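Without the lowest 40% of probe sets, after quantile normalization again, after centring each array on its median, with trend and robust eBayes, at an adjusted p under 0.1 and without members of several genes, 2 of the MHC probe sets passed, as in the report. The last 2 of these settings could not lower the count, as a looser threshold drops no call and both probe sets carry 1 gene. The count was 6 with array weights (gene-by-gene, since the default estimate could not be fitted). The additions were 1435290_x_at and 1438858_x_at of H2-Aa (0.86 and 0.50) and 1425545_x_at (0.47) and 1450170_x_at (-1.24) of H2-D1. The count was 0 with the Gapdh covariate and with the replicate block. It was also 0 without the _x_at, _s_at and _a_at classes, where 11 of the 36 remain, but both probe sets that passed in the report are _x_at and were dropped. Averaged by gene, none of the 10 genes passed, H2-K1 and H2-Aa coming nearest (limma adjusted p = 0.0651 and 0.0725), while 176 genes of the series did. Over all probe sets, 200 passed, against 306 with trend and robust eBayes, 1058 with array weights, 18 with the Gapdh covariate and 317 at an adjusted p under 0.1. With the replicate block 117 passed, but the replicate numbers did not pair the arrays (correlation of deviations -0.32, -0.07 and -0.01 for the 3 numbers). For the other antigen presentation genes and the genes between H2-K1 and H2-D1, 0 passed, and array weights gave 2 (Irf8 and H2-DMb2) and 2 (Cyp21a1 and Abhd16a). Leaving out 1 array gave 70 to 429 over all probe sets, 0 to 3 of the MHC probe sets and 0 to 1 of the genes between H2-K1 and H2-D1. No difference of a passing MHC probe set changed sign under these alternatives. With the Gapdh covariate 10 of the 36 differences changed sign, with array weights 3, and with 1 array left out 1 to 4. The number of arrays limits all of these values.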
